A study of Mus musculus with 11 samples.

Results

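Ketone body use in the mouse heart was described through 4 genes, Slc16a1, Bdh1, Oxct1 and Acat1. They were taken by their GENCODE symbol on the mouse build GRCm38 from a deposited count table of 55487 gene identifiers, and all 4 were among the 23779 genes that had enough counts to be tested. RNA came from hearts of female C57BL/6NTac mice, an inbred strain, that entered the diets when 8 weeks old. The control group (4 libraries) ate a diet with 10.4% of its energy from fat. The obese group (4 libraries) ate an obesogenic diet for 24 weeks, a solid food with 60.3% of energy from fat offered together with sweetened condensed milk, and from week 16 was gavaged with the vehicle, 10% PEG400. The treated group (3 libraries) had the same obesogenic diet and, from week 16, gavages of dasatinib (5 mg/kg), a tyrosine kinase inhibitor, and quercetin (50 mg/kg), a flavonoid, in the same vehicle. The pair is used as a senolytic, a treatment meant to clear senescent cells. A gavage of control mice is neither stated nor denied in the labels, so diet and gavage cannot be told apart in comparisons with the control group. Nothing states that the libraries of a group are different animals, so the p-values rest on a library-to-library spread that may be technical.

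Ketone bodies, beta-hydroxybutyrate and acetoacetate, are made from fatty acids mainly in liver mitochondria when carbohydrate is scarce, and they are burned in other organs, the heart among the most active. Slc16a1 encodes MCT1, a plasma membrane carrier that moves ketone bodies, lactate and pyruvate together with a proton. Bdh1 encodes the mitochondrial dehydrogenase that interconverts beta-hydroxybutyrate and acetoacetate. Oxct1 encodes SCOT, which moves coenzyme A from succinyl-CoA to acetoacetate and is the committed step of ketone oxidation. Acat1 encodes the mitochondrial thiolase that splits acetoacetyl-CoA into acetyl-CoA, and the same enzyme also acts in isoleucine breakdown.

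The genes lie apart in the genome. On GRCm38, Slc16a1 (ENSMUSG00000032902) spans chr3:104638668-104658462 on the plus strand, Bdh1 (ENSMUSG00000046598) chr16:31422280-31458901 on the plus strand, Oxct1 (ENSMUSG00000022186) chr15:4026383-4155344 on the plus strand and Acat1 (ENSMUSG00000032047) chr9:53580522-53610382 on the minus strand. All are protein-coding, and their merged exons cover 4426, 3888, 3701 and 3758 bases in that order. Bdh1 shares 533 exon bases with the antisense gene Gm15743, which had at most 1.634 CPM (a gene's counts relative to its library's total after TMM, a correction for library composition) in any library, and Oxct1 shares 467 with BC037032 on the opposite strand, which had at most 9.393 CPM. How counting treated strand was not given in the sources used here, so reads in these shared bases cannot be assigned to 1 strand.

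The sequence before the start of 3 of the 4 genes was available from the RefSeq promoter table of GRCm38.p6, with Acat1 without an entry. These stretches are shown because they differ in base composition, and a link to the changes in obese hearts was not tested. Each is written 5′ to 3′ on the plus strand and ends before the first annotated exon base. They are Slc16a1 at chr3:104638414-104638663, Oxct1 at chr15:4026178-4026382 and the first of 2 Bdh1 starts at chr16:31422047-31422279. Capitals mark the E-box CACGTG and the GC box GGGCGG.
Slc16a1: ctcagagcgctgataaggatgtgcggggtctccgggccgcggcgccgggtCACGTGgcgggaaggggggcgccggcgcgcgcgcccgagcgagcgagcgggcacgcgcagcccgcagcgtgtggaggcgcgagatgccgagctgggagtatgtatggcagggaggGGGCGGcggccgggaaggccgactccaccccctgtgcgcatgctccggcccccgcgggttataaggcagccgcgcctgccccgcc
Oxct1: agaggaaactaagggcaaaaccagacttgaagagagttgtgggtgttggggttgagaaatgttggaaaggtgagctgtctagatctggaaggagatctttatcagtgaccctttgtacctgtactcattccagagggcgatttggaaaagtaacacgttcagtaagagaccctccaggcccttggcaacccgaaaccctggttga
Bdh1: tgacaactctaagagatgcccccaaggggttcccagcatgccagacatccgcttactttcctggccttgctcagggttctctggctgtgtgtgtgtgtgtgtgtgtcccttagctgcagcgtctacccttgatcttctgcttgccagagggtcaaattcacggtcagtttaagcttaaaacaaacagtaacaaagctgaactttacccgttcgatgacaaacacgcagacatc

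The Slc16a1 stretch was 76.4% G and C and held 37 CG pairs in its 250 bases, above the upper quartile of all promoter windows (median 52.4%, quartiles 45.2% and 61.2%). The Oxct1 stretch was 47.8% G and C with 3 CG pairs, and the first Bdh1 stretch 49.8% with 6. The second Bdh1 start had 60.4% in chr16:31428503-31428747. Both strands were searched for AGGTCA, the core site of nuclear receptors such as PPARs, for its direct repeat with 1 base between the copies and 1 mismatch allowed, for the ERR site TNAAGGTCA, which contains AGGTCA, and for CACGTG, TGACGTCA (the CRE) and GGGCGG. The matches were the E-box of Slc16a1, 200 to 195 bases before the start, and its GC box, 85 to 80 bases before the start. Among 32851 windows of 27025 genes, 6.02% held CACGTG, 32.7% GGGCGG, 14.0% AGGTCA, 1.14% TNAAGGTCA, 1.55% TGACGTCA and 0.48% the direct repeat. These windows, which also gave the quartiles, kept all 250 bases with no exon bases cut. The Oxct1 stretch had 205 bases and the first Bdh1 stretch 233, so the shares are not like for like. A match is only a description of the letters in a window.

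In all 11 libraries the 4 genes kept 1 order by level per exon length. RPKM values (TMM-scaled CPM divided by the exon length in kilobases) ran from 90.55 to 183.8 for Oxct1, from 37.63 to 107.0 for Acat1, from 19.85 to 57.71 for Slc16a1 and from 7.595 to 18.67 for Bdh1. The order Oxct1, Acat1, Slc16a1, Bdh1 held in 11 of 11 libraries, although the ranges of neighbouring genes met across libraries for Oxct1 and Acat1 and for Acat1 and Slc16a1. The enzyme that commits acetoacetate to oxidation was thus the most abundant transcript of the 4, and the dehydrogenase before it the least abundant. All 10 cardiomyocyte markers were detected, with a summed level between 75700 and 109900 CPM, and the 3 of 6 hepatocyte markers that were tested summed to at most 13.46 CPM.

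The libraries held 52.74 to 103.3 M counts, and every control library was deeper than every other. Mitochondrial-chromosome genes took 28.2% to 32.3% of counts in control libraries and 17.8% to 24.5% in the rest. Genes annotated as sense-intronic or TEC (loci awaiting experimental evidence), called the intronic share here, took 0.286% to 0.590% of counts in control, 0.663% to 0.811% in obese and 0.509% to 0.671% in treated libraries. Control and obese libraries did not overlap in this share. In each group the library with the highest intronic share (control replicate 2, obese replicate 3 and treated replicate 3) had the lowest Oxct1 and the lowest Bdh1. The summed level of 8 atrial myocyte markers ran from 47.75 to 116.9 CPM in control, from 28.27 to 2198 in obese and from 62.12 to 5785 in treated libraries.

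The comparison of obese with control hearts asks how the heart's transcripts for ketone use differ after an obesogenic diet. Transcripts of the carrier Slc16a1 and of the thiolase Acat1, at the first and the last step, fell 1.91-fold and 1.85-fold in obese hearts. These falls depend on the scaling in size. Their log2 fold changes were -0.93 and -0.89 with TMM, and -0.49 and -0.47 by total counts alone. TMM factors were 0.733 to 0.954 in control and 1.02 to 1.19 in obese libraries. Log2 fold changes of Oxct1 and Bdh1 were -0.42 and -0.14 (0.02 and 0.29 when libraries were scaled by total counts alone), and neither passed the test. By edgeR's quasi-likelihood test, with a Benjamini-Hochberg adjusted p under 0.05, 2 of the 4 genes were called lower and 0 higher, where 15.7% of all genes tested were called lower and 14.4% higher. Of the genes called, 47.9% were higher, against 59.9% with upper-quartile scaling and 90.4% by total counts alone. The median log2 fold change of the 4 genes was -0.65, against 0.11 over all genes. The 4 genes were chosen with earlier results of these data known, so their comparison with all genes is a description.

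Slc16a1, the carrier, had 242.0, 125.0, 193.9 and 255.4 CPM in control replicates 1 to 4 and 101.3, 87.85, 105.4 and 132.7 CPM in obese replicates 1 to 4. Control replicate 2 lay below obese replicate 4, and the other 3 control libraries lay above every obese library. The log2 fold change was -0.93 (SE 0.20, 95% interval -1.36 to -0.51, adjusted p = 0.00437). The mean fell from 204.1 ± 58.9 CPM (SD, n = 4) to 106.8 ± 18.8 CPM (SD, n = 4).

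Acat1, the thiolase, had 363.5, 261.0, 347.3 and 402.1 CPM in the control libraries and 195.6, 141.4, 164.2 and 240.5 CPM in the obese libraries. Every control library exceeded every obese library, and Acat1 was the 1 gene of the 4 whose groups did not overlap, where 28.5% of all genes did not. Its log2 fold change was -0.89 (SE 0.18, 95% interval -1.28 to -0.50, adjusted p = 0.00348).

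Oxct1, the transferase, had 635.8, 403.3, 522.6 and 680.1 CPM in the control libraries and 420.6, 382.0, 335.1 and 542.9 CPM in the obese libraries. The groups overlapped, with control replicate 2 below obese replicates 1 and 4. Its log2 fold change of -0.42 (SE 0.20, 95% interval -0.84 to 0.0036, adjusted p = 0.12) did not pass. It passed without control replicate 2 (-0.57, adjusted p = 0.0285) and without obese replicate 4 (-0.58, adjusted p = 0.0421), and over the 11 fits that each left out 1 library the adjusted p ran from 0.0285 to 0.282. Of 14 other settings it passed in 1, which took the replicate numbers of the titles as a block (adjusted p = 0.0395).

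Bdh1, the dehydrogenase, had 47.35, 38.29, 53.3 and 71.0 CPM in the control libraries and 42.52, 52.46, 29.53 and 65.35 CPM in the obese libraries. Obese libraries were spread through and below the control range. The log2 fold change was -0.14 (SE 0.24, adjusted p = 0.668), and its 95% interval of -0.66 to 0.37 reached from 0.634 to 1.29 times the control level. It was 0.02 without control replicate 4 and 0.03 without obese replicate 3.

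**Figure D1:**
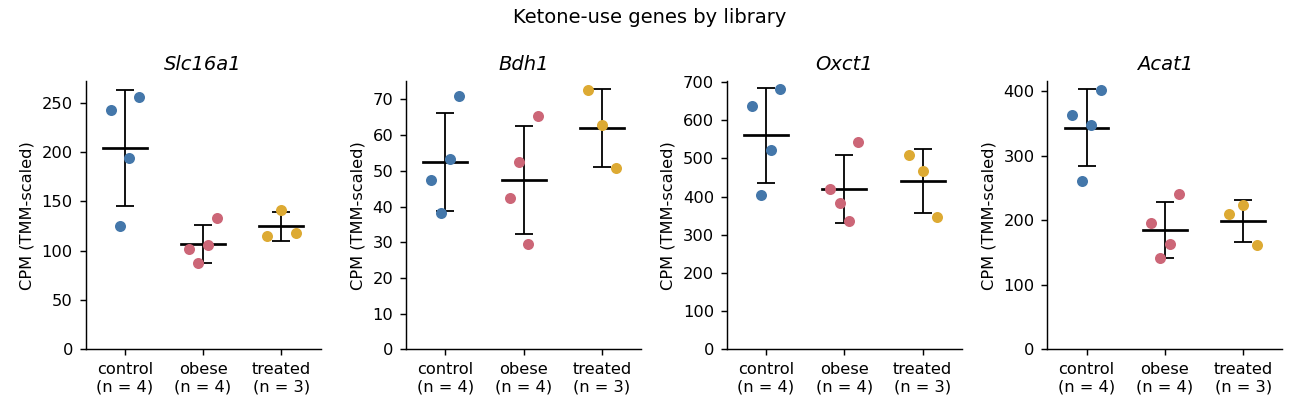
TMM-scaled CPM of Slc16a1, Bdh1, Oxct1 and Acat1 (vertical axes from 0) in each library of the control (n = 4), obese (n = 4) and treated (n = 3) groups, with a line at the group mean and bars of 1 SD. For Acat1 the control libraries, 261.0 to 402.1 CPM, all lie above the obese ones, 141.4 to 240.5 CPM, whereas for Bdh1 the groups overlap.

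The falls of Slc16a1 and Acat1 passed in 13 of 14 other settings each and whichever of the 11 libraries was left out. The setting in which they did not pass took the intronic share as a covariate: log2 fold changes were then 0.06 for Slc16a1 (SE 0.23, adjusted p = 0.942), -0.19 for Acat1 (SE 0.25, adjusted p = 0.809), 0.45 for Oxct1 and 0.77 for Bdh1, and 121 genes were called in place of 7166. Since control and obese libraries do not overlap in the intronic share, that share and the diet cannot be told apart here. Markers of the vessel lining moved the same way as Slc16a1: 3 of 7 endothelial markers were called lower, and their summed level was 867.3 to 1021 CPM in control and 673.9 to 835.4 CPM in obese libraries. Of 10 cardiomyocyte markers, 5 were called lower, with sums of 80160 to 109900 and 75700 to 98660 CPM. Of 7 adipocyte markers, 4 were called higher and 1 lower, with a median log2 fold change of 3.91, and 1 had 0 counts in every control library. Their summed level went the other way and did not overlap, with 102.3 to 118.3 CPM in control and 51.24 to 68.73 CPM in obese libraries. Of the other marker lists, 1 erythroid, 1 fibroblast and 1 Schwann or neural marker were called higher, 1 hepatocyte marker lower, and 0 of 8 atrial and 0 of 7 macrophage markers either way. Their part in the result was not tested, and in RNA from whole tissue fewer cells of a type and less RNA per cell cannot be told apart.

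**Figure D2:**
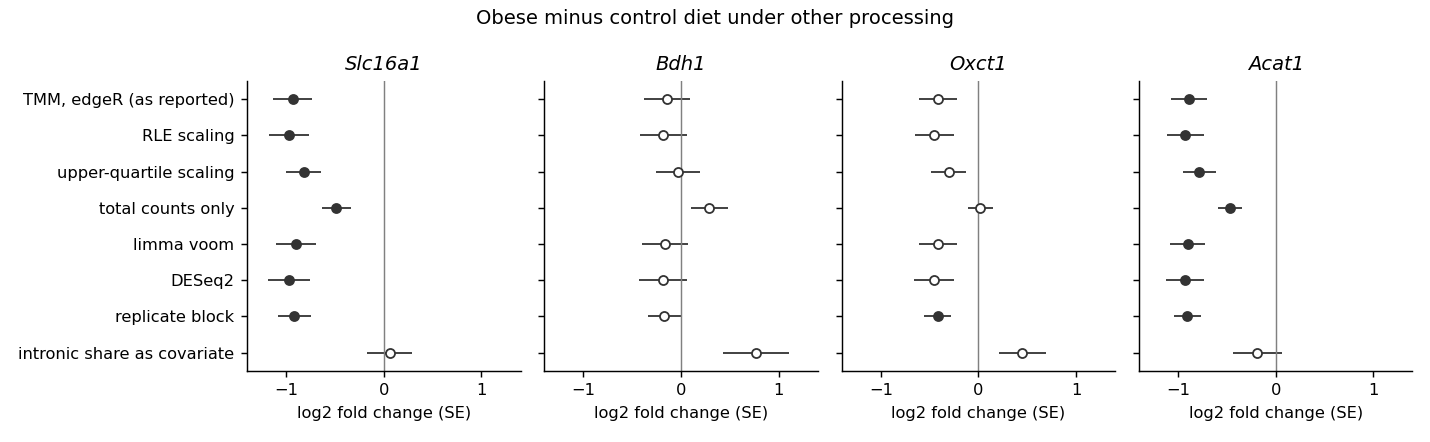
Log2 fold change of obese against control diet (horizontal axis, bars of 1 SE) for each of the 4 genes under 8 ways of processing the same counts; filled points have an adjusted p under 0.05. Slc16a1 and Acat1 are filled in each row but the last, where the intronic share is a covariate and the values are 0.06 and -0.19.

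Genes around the 4 were taken from 5 lists of the ketone pathway and its partners, with 44 genes of which 36 were tested. The lists, too, were chosen with earlier results of these data known. In obese hearts 19 of the 36 were called lower and 2 higher, where 15.7% of all genes tested were called lower and 14.4% higher. The median log2 fold change of the 36 was -0.46, with 27 values below 0 and 9 above. Over the same comparison, 36 of 39 nuclear genes of the respiratory chain were called lower and 0 higher. All 39 had values below 0, with a median of -0.75. Slc16a1 and Acat1 thus lay past the chain's median, while Oxct1 and Bdh1 lay short of it.

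In the list of ketone synthesis, Acaa2, a thiolase of beta-oxidation, fell 1.85-fold (adjusted p = 0.00703), with 404.6 to 582.8 CPM in control and 193.1 to 376.9 CPM in obese libraries. Every control library held more Acaa2 than every obese library. Acat3, a copy of the cytosolic thiolase Acat2, rose 1.84-fold (adjusted p = 0.0225), with 0.4525 to 0.9422 CPM in control and 1.005 to 1.478 CPM in obese libraries. Reads of Acat2 and Acat3 could be split between near-identical copies, and this value is uncertain.

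Of 6 genes of other uses, 4 were tested, of which 2 were called lower and 1 higher. Acss1, the mitochondrial acetyl-CoA synthetase that activates acetate, fell 2.32-fold (adjusted p = 0.000632), with 322.1 to 381.6 CPM in control and 103.5 to 193.4 CPM in obese libraries. Its cytosolic counterpart Acss2 fell 1.32-fold (adjusted p = 0.00623). Aacs, which activates acetoacetate in the cytosol for lipid synthesis, rose 1.43-fold (adjusted p = 0.0316), with 1.769 to 2.699 CPM in control and 2.957 to 3.396 CPM in obese libraries. Its level in every obese library was above the highest control library, but low. Bdh2, a cytosolic dehydrogenase, had a log2 fold change of 0.64 (SE 0.57, adjusted p = 0.416). Oxct2a and Oxct2b, near-identical copies known from testis, had 29 and 5 counts over all 11 libraries and were not tested.

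Of 12 genes of monocarboxylate transport and its partners, 10 were tested, with 4 called lower and 0 higher. Bsg, basigin, the chaperone that carries MCT1 to the plasma membrane, had 520.1, 370.8, 528.6 and 583.9 CPM in control and 199.4, 167.2, 175.6 and 272.9 CPM in obese libraries. It fell 2.46-fold (log2 fold change -1.30, SE 0.18, adjusted p = 0.000489) and its groups did not overlap. Slc16a6, a relative of the carrier, fell 1.44-fold (adjusted p = 0.0033), Mpc1, of the mitochondrial pyruvate carrier, 1.7-fold (adjusted p = 0.00661) and Ldhb, the heart form of lactate dehydrogenase, 1.82-fold (adjusted p = 0.0075). Among members of the list that did not pass, the log2 fold change was 0.45 for Slc16a3 (MCT4, adjusted p = 0.0947), 0.11 for Slc16a7 (MCT2, adjusted p = 0.767), 0.53 for Slc16a8 (MCT3, adjusted p = 0.175) and -0.43 for Mpc2, the partner of Mpc1 (adjusted p = 0.0679). That of Emb, embigin, the partner of MCT2, was 0.00 (adjusted p = 0.997). Slc5a8 and Slc5a12, sodium-coupled carriers, had 7 and 27 counts in all.

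Of 10 regulators and receptors, 6 were tested, with 2 called lower and 0 higher. Those called lower were the acylcarnitine-forming enzymes Cpt1a (1.78-fold, adjusted p = 0.00111) and Cpt1b (1.66-fold, adjusted p = 0.00478), which admit fatty acids to mitochondria. Ppara (log2 fold change -0.14, adjusted p = 0.618) and Ppargc1a (0.25, adjusted p = 0.542) did not pass. Nor did Esrra (-0.11, adjusted p = 0.513) or Sirt3 (0.06, adjusted p = 0.723). Hcar2, a cell-surface receptor for beta-hydroxybutyrate, had 45 counts over all libraries, Fgf21 65, and Ffar3 and Foxa2 0. Of 10 genes that supply succinyl-CoA or use acetyl-CoA, 8 were called lower and 0 higher. These included all 3 subunits of succinyl-CoA ligase, which draws on the same succinyl-CoA as SCOT: Sucla2 fell 1.98-fold (adjusted p = 0.00187), Suclg2 1.86-fold (adjusted p = 0.00305) and Suclg1 1.63-fold (adjusted p = 0.00461). Pdha1, of pyruvate dehydrogenase, fell 1.81-fold (adjusted p = 0.00319), and Dld, its shared lipoamide dehydrogenase, 1.72-fold (adjusted p = 0.0049).

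**Figure D3:**
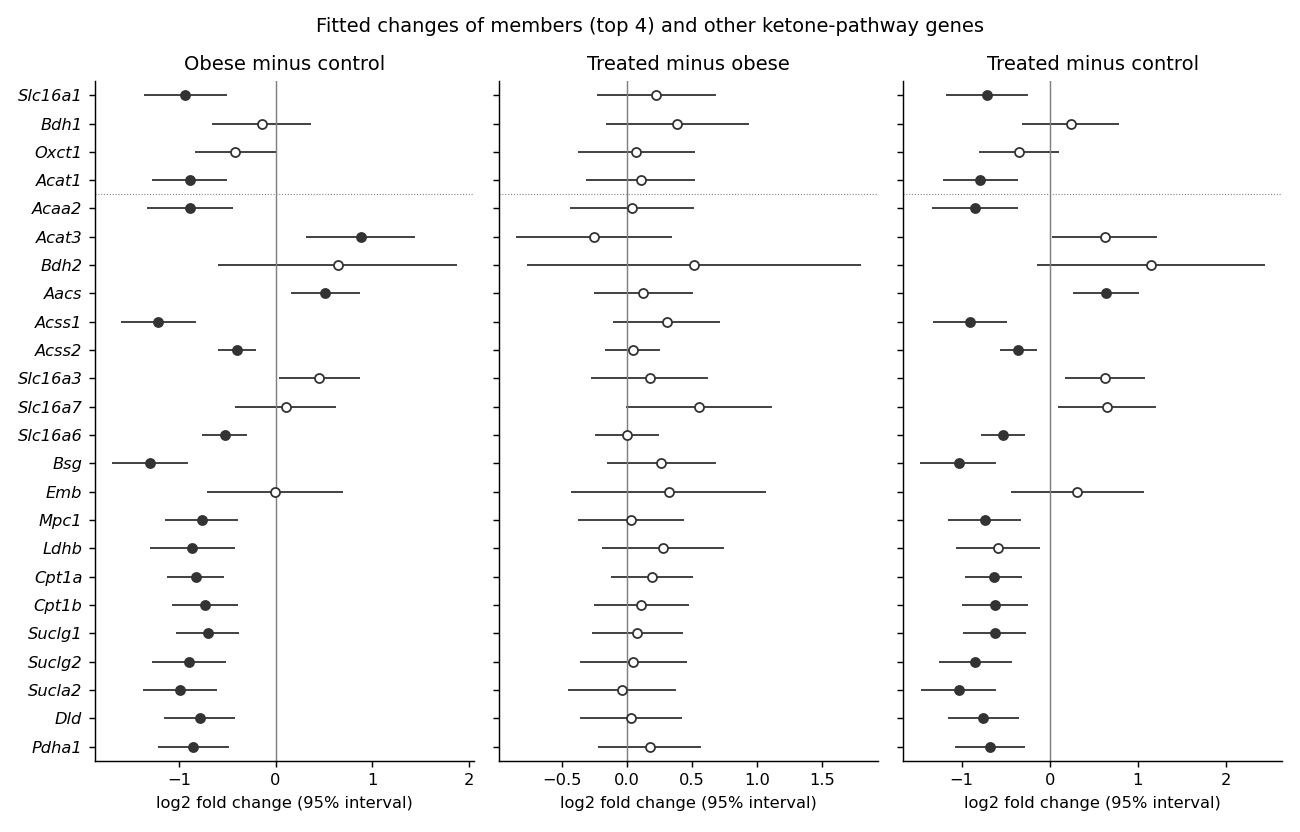
Fitted log2 fold change with its 95% interval (horizontal axes, scaled per panel) for the 4 genes at the top and other genes of the pathway lists below them, in the 3 comparisons; filled points have an adjusted p under 0.05. Bsg and Acss1 lie lowest in the panel of obese against control (-1.30 and -1.22), and the middle panel has no filled point.

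The comparison of treated with obese hearts asks what the cocktail changed on the obesogenic diet. Of the 4 genes 0 were called, as of all 23779 genes, 0% of which passed edgeR's quasi-likelihood test. At an unadjusted p under 0.05 that test took 2425 genes, among them 0 of the 4. DESeq2 called 131 genes and limma voom 0. Of the 36 other pathway genes, edgeR, DESeq2 and limma voom each called 0, and edgeR took 0 at an unadjusted p under 0.05. The treated and obese libraries overlapped for 4 of the 4 genes, and were apart for 10.1% of all genes.

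Bdh1 had 72.6, 62.74 and 50.84 CPM in treated replicates 1 to 3, and the log2 fold change against obese was 0.39 (SE 0.25, 95% interval -0.16 to 0.94, adjusted p = 0.609). This interval reached from 0.893 to 1.91 times the obese level. Slc16a1 had 114.8, 141.5 and 117.4 CPM, with 0.22 (SE 0.21, adjusted p = 0.733) and an interval of 0.849 to 1.6 times. Acat1 had 210.6, 224.2 and 162.2 CPM, with 0.10 (SE 0.19, adjusted p = 0.879) and an interval of 0.803 to 1.43 times. Oxct1 had 509.5, 466.6 and 346.0 CPM, with 0.07 (SE 0.21, adjusted p = 0.926) and an interval of 0.767 to 1.43 times. Treated and obese ranges overlapped for each of the 4 genes, and the intervals hold changes in either direction. Erythroid markers differed in summed level, with 886.1 to 1840 CPM in obese and 721.5 to 883.8 CPM in treated libraries, and 0 of 8 were called.

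The third comparison, treated with control hearts, shares its control libraries with the first. Slc16a1 and Acat1 were again called lower and 0 of the 4 higher, where 8.39% of all genes were called lower and 7.43% higher. Acat1 was 1.73-fold lower (log2 fold change -0.79, SE 0.20, 95% interval -1.21 to -0.36, adjusted p = 0.0204), and was again the 1 gene of the 4 whose groups did not overlap, where 27.9% of all genes did not. Slc16a1 was 1.64-fold lower (-0.71, SE 0.22, 95% interval -1.18 to -0.25, adjusted p = 0.0418). Oxct1 had a log2 fold change of -0.35 (SE 0.21, adjusted p = 0.276) and Bdh1 of 0.24 (SE 0.25, adjusted p = 0.54).

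These 2 calls changed more often than those of obese against control hearts when libraries were left out. Acat1 missed the threshold without control replicate 1 (-0.77, adjusted p = 0.0517), control replicate 4 (-0.71, adjusted p = 0.0589) or treated replicate 3 (-0.66, adjusted p = 0.107). Slc16a1 passed in 4 of the 11 fits that left out 1 library. It missed without control replicate 1 (-0.63, adjusted p = 0.107), 3 (-0.75, adjusted p = 0.0684) or 4 (-0.59, adjusted p = 0.114) and without obese replicate 1 (-0.71, adjusted p = 0.0524). It also missed without treated replicate 1 (-0.66, adjusted p = 0.114), 2 (-0.82, adjusted p = 0.0578) or 3 (-0.67, adjusted p = 0.148). Over 14 other settings, Acat1 passed in 11 and Slc16a1 in 8. With the intronic share as a covariate, the values were -0.36 for Acat1 (adjusted p = 0.378) and -0.09 for Slc16a1 (adjusted p = 0.848). By total counts alone they were -0.36 (adjusted p = 0.0598) and -0.26 (adjusted p = 0.226), and without the 3 libraries highest in atrial markers -0.69 (adjusted p = 0.231) and -0.82 (adjusted p = 0.228). Slc16a1 also missed with limma voom (-0.67, adjusted p = 0.0575) and in a fit of the 2 groups alone (-0.69, adjusted p = 0.0529).

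Of the 36 pathway genes, 14 were called lower and 1 higher in treated than in control hearts, against 8.39% and 7.43% of all genes. Their log2 fold changes were below 0 for 23 and above 0 for 13. Of 39 respiratory chain genes, 17 were called lower, and all 39 had values below 0. Bsg was 2.05-fold lower (adjusted p = 0.00625), Acss1 1.88-fold lower (adjusted p = 0.0103) and Slc16a6 1.44-fold lower (adjusted p = 0.0114). Aacs, the gene called higher, had 3.312 to 3.584 CPM in the treated libraries and was 1.56-fold higher (adjusted p = 0.0295). The count of 15 pathway genes was 7 without control replicate 1, 8 without control replicate 4 and 4 without treated replicate 3. For Slc16a7 treated libraries lay above all control libraries (13.88 to 17.06 against 8.289 to 11.62 CPM), with an adjusted p of 0.102, and for Slc16a3 likewise (3.154 to 4.14 against 1.868 to 2.939 CPM), with an adjusted p of 0.0573.

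Ratios between transcripts of the same library hardly depend on how libraries are scaled. The 1 CPM added to each value before the log leaves a slight dependence. The log2 ratio of Oxct1 to Acat1, by CPM, was 0.8048, 0.6262, 0.5883 and 0.7567 in control libraries, 1.101, 1.427, 1.025 and 1.171 in obese libraries and 1.271, 1.054 and 1.089 in treated libraries. Every library on the obesogenic diet exceeded every control library. The mean rose from 0.69 ± 0.10 (SD, n = 4) in control to 1.18 ± 0.18 (SD, n = 4) in obese hearts, a 1.4-fold difference (2-sided exact permutation test, p = 0.0286, adjusted p = 0.122 over 30 ratio tests). That p is the smallest that 4 against 4 libraries can give, and 4 against 3 cannot go below 0.0571. With these floors no adjusted p over the 30 tests could go below 0.05. That 0 of the 30 exact tests passed after adjustment was thus fixed by the design and says nothing about the ratios. Of the 30, 4 had an unadjusted p under 0.05.

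The other 3 were also of obese against control diet. Bdh1 to Acat1 had a log2 ratio of -2.70 ± 0.18 in control and -1.97 ± 0.44 in obese libraries (SD, n = 4 each; exact permutation p = 0.0286, adjusted p = 0.122). Set against the mean log2 CPM of 39 respiratory chain genes, Oxct1 was higher in obese hearts by 0.31 (1.46 ± 0.10 against 1.77 ± 0.15; exact permutation p = 0.0286, adjusted p = 0.122). Acat1 was lower by the same measure in obese hearts, with 0.77 ± 0.03 in control and 0.59 ± 0.05 in obese libraries (exact permutation p = 0.0286, adjusted p = 0.122). By contrast the log2 ratio of Acat1 to Slc16a1 was 0.78 ± 0.21 in control and 0.78 ± 0.14 in obese libraries (exact permutation p = 0.943), and Slc16a1 against the chain differed by -0.18 (exact permutation p = 0.2). Between treated and obese libraries the 10 ratios overlapped, with exact permutation p from 0.114 upward.

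**Figure D4:**
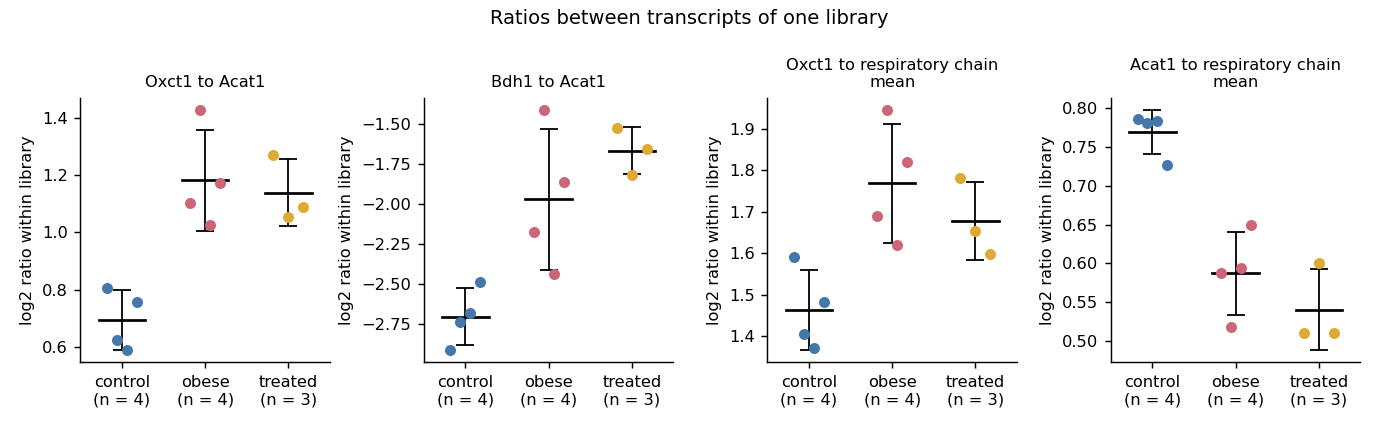
Log2 ratios within each library (vertical axes, scaled per panel) of Oxct1 to Acat1, Bdh1 to Acat1, and of Oxct1 and Acat1 to the mean of 39 respiratory chain genes, with group means and bars of 1 SD. In the first panel the control libraries lie between 0.5883 and 0.8048 and all others at 1.025 or above, and in the last panel the order is turned, with control at 0.7263 to 0.7859.

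Across the 11 libraries, the genes most like each of the 4 were found by the Pearson correlation of log2 CPM among 7765 genes with a mean of at least 10 CPM. These correlations are descriptions, since the points share their diet groups, depth and library scaling. Acat1 ran closest with Ndufs1, Idh3g and Ndufb5 (each r = 0.995 over 11 libraries), which encode 2 complex I subunits and a subunit of isocitrate dehydrogenase. Oxct1 ran closest with Uqcrq (r = 0.965), a complex III subunit, Shmt2 (0.962), a mitochondrial serine hydroxymethyltransferase, and Sdhaf2 (0.962), an assembly factor of complex II. Slc16a1 was nearest to Prpf8 (r = 0.989), a core protein of the spliceosome, Synpo2 (0.989), a protein of the muscle Z disc, and G3bp1 (0.987), a stress granule protein. Bdh1 stood further from its neighbours, with Mrps18a (r = 0.931), a mitochondrial ribosomal protein, Snrpa (0.87), a spliceosomal protein, and Gpr137 (0.833).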

How the data were processed

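Whole-number counts per Ensembl gene in 11 heart libraries were used as deposited by the authors. The submitters' processing notes name cutadapt, HISAT2, StringTie and GRCm38. The annotation, the treatment of strand and whether reads were counted or estimated were not given in the sources used here. A GENCODE annotation of GRCm38 named 55227 of 55487 identifiers. Genes were filtered with filterByExpr (minimum count 10, total 15), scaled by TMM and fitted in 1 model of 3 groups by edgeR 4.0.16 (R 4.3.3, robust quasi-likelihood test). Benjamini-Hochberg adjustment covered 23779 genes per comparison, with a threshold of 0.05. Totals of 52.74 to 103.3 M counts and a common coefficient of biological variation of 0.259 set the precision. Log2 CPM used a prior count of 1, except in the ratios, where 1 CPM was added to each scaled value. RPKM divided TMM-scaled CPM by merged exon length. Ratios were compared by 2-sided exact permutation tests. The gene fits were also run on simulated counts with less spread and fewer changed genes than these data. That run does not show how the fits perform at the spread seen here, and it did not cover the ratio tests.

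Named were the 4 genes, Bdh2, Aacs, Slc16a3, Slc16a7, Bsg and Emb, up to 4 called genes of smallest p per list and comparison, and the 3 most like-patterned genes per member. Some genes that this rule takes are not reported here. The 4 genes and all lists were chosen with earlier results of these data known. Alternatives were 3 scalings, 2 filters, DESeq2 1.42.0, limma 3.58.1 voom, 2-group fits, a replicate block, an intronic covariate, removal of mitochondrial-chromosome or non-coding genes, thinning, and leaving out libraries.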

Additional observations from a re-analysis of the deposited data

Results flagged for a closer look

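In 2 of 28 groups of 4 libraries examined, 1 library stood apart from the other 3 by the gap to its nearest neighbour, where chance alone marks about 1 in 20 groups. In the control group, the log2 ratio of Oxct1 to Slc16a1 was 1.682 in replicate 2 and 1.39 to 1.426 in the other 3 libraries. Also in the control group, the log2 ratio of Acat1 to the respiratory chain mean was 0.7263 in replicate 4 and 0.78 to 0.7859 in the others.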

How the results depend on the processing

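Whether the replicate numbers in the titles pair libraries is not stated and could not be settled here. Same-numbered libraries correlated between -0.232 and 0.399 in their deviations from group means over 10 pairs (median 0.0573). Libraries of different groups with unlike numbers correlated between -0.408 and 0.192 (median -0.0298). Of the 11 libraries, 6 correlated best with their own number. With the numbers as a replicate block, Oxct1 of obese against control passed (-0.42, adjusted p = 0.0395) and Slc16a1 of treated against control did not (-0.55, adjusted p = 0.0847), and the counts of genes called were 7112, 0 and 2690 in the order diet, treated against obese, and treated against control.

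Scaling by total counts alone, without a composition factor, moved the median of all genes to 0.527 in the diet comparison (0.107 with TMM, 0.209 with upper-quartile scaling) and called 90.4% of changed genes higher, against 47.9% with TMM and 59.9% with upper-quartile scaling; against control, treated hearts had 7300 genes called, 94.7% of them higher, against 47% with TMM. Under it the diet values turned for Bdh1 (0.29) and Oxct1 (0.018), and for treated against control Oxct1 turned (0.089), Bdh1 passed (0.68, adjusted p = 0.0245), and Acat1 (-0.36) and Slc16a1 (-0.26) missed. A change of scaling shifts all genes by nearly the same amount. Values relative to the median of all genes could therefore hardly move, and they do not test the choice of scaling. By this measure Slc16a1 was at -1.04 with TMM and -1.01 by total counts in the diet comparison, and Acat1 at -0.997 and -0.992. Oxct1 was at -0.52 and -0.51, and Bdh1 at -0.25 and -0.24.

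With the intronic share as a covariate, diet values were 0.77 for Bdh1, 0.45 for Oxct1, -0.19 for Acat1 and 0.061 for Slc16a1, with 121 genes and 0 pathway genes called. For treated against obese, Oxct1 (-0.25), Acat1 (-0.17) and Slc16a1 (-0.15) turned. For treated against control Oxct1 turned (0.20), Acat1 (-0.36) and Slc16a1 (-0.0855) missed, and 510 genes and 1 pathway gene were called. The cause was not tested. Without the 3 libraries highest in atrial markers, which leaves 1 treated library that is assumed to vary like the rest, Bdh1 turned in the diet comparison (0.029), Acat1 (-0.69) and Slc16a1 (-0.82) missed against control, and 5, 378 and 1 genes were called for treated against obese, treated against control, and the pathway in the latter. Slc16a1 of treated against control also missed with limma voom (-0.67) and with the 2 groups alone (-0.69). Genes called for treated against obese numbered 2 with upper-quartile scaling, 2 without a filter, 131 with DESeq2, 2 among protein-coding genes and 1 after thinning.

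Leaving out 1 library at a time, diet values ran from -0.36 to 0.028 for Bdh1, -0.58 to -0.32 for Oxct1, -1.06 to -0.78 for Acat1 and -1.14 to -0.82 for Slc16a1. For treated against control the ranges were -0.92 to -0.66 for Acat1 and -0.91 to -0.59 for Slc16a1, and for treated against obese -0.047 to 0.22 for Oxct1 and -0.0080 to 0.25 for Acat1, where Oxct1 turned without obese replicate 3 (-0.025) or treated replicate 1, and Acat1 without obese replicate 2. Genes called ranged from 1011 (without treated replicate 3) to 4652 for treated against control, which was 1857, 2473 and 1816 without control replicates 1, 3 and 4, from 0 to 24 (without obese replicate 3) for treated against obese, and from 4 to 21 for the pathway in treated against control. Among ratios, the sign turned in some of these fits for Acat1 to Slc16a1 by diet (-0.071 to 0.086), for treated against obese in Bdh1 to Slc16a1 (-0.0099 to 0.35), Oxct1 to Acat1 (-0.11 to 0.039) and Slc16a1 to the chain (-0.019 to 0.18), and for treated against control in Slc16a1 to the chain (-0.20 to 0.0072).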
